A study of Danio rerio with 9 samples.

Results

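Most of the genes described here encode proteins that the liver of zebrafish larvae secretes into the blood: fibrinogen chains, clotting factors and their inhibitors, protease inhibitors, carriers of iron, copper, heme, retinol and thyroid hormone, and precursors of vasoactive peptides. fabp10a, which encodes an intracellular fatty acid binding protein of hepatocytes, was added to them as a marker of the liver cells, with its paralog fabp10b, and TFR2 encodes a membrane receptor of hepatocytes. They were taken by name, from a list of 32 member names, as every row whose symbol, ignoring case, was a member or its stem with or without a paralog suffix (a, b, l, or a dot with 1 or 2). The rule used no measured value. It found 42 of the 32520 genes in the table, for 31 of the 32 names. No row carried the symbol f9b, and the row with the symbol F9 (ENSDARG00000029493) is described under that symbol.

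The 9 libraries were made from polyA RNA of whole wild-type larvae of the AB strain, aged 5 days. The 3 control libraries (Ctrl) came from non-microinjected larvae, 3 libraries from larvae microinjected with sialylated human milk oligosaccharides (SHMO) and 3 from larvae microinjected with sialylated bovine milk oligosaccharides (SBMO). Both oligosaccharide solutions were injected into the yolk at 4.7 h post fertilization, in a volume of 4.6 nL and at a concentration of 100 mmol/L. No library of saline-injected larvae was among the 9, so in each comparison with Ctrl the injection and the oligosaccharides cannot be told apart, whereas the comparison of SBMO with SHMO sets one injected group against another. All 3 groups were wild-type, with no transgene or mutation named in the labels, and each library was made from a pool of larvae, so that differences between larvae of a pool are not seen.

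Hepatocytes make most plasma proteins, and in zebrafish the embryonic liver buds from the gut tube and secretes them during larval life. In the clotting cascade, an injured vessel exposes tissue factor, which activates factor VII, then factor X, and with factor V the latter converts prothrombin to thrombin. Thrombin cuts fibrinogen into fibrin. Antithrombin, heparin cofactor II and the protein C pathway restrain these steps, and plasmin dissolves the clot. Prothrombin, factors VII, IX and X, protein C and protein S need a vitamin K-dependent modification of their glutamates to bind calcium and membranes.

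Levels are given in TPM (transcripts per 1000000), a share of all transcripts of a library corrected for gene length, as the authors deposited them, and in the order of replicates 1, 2 and 3. Log2(FC) is the difference between group means of log2(scaled TPM + 0.1), which understates the change of genes at a low level. A gene was called higher or lower, which is what these words mean below, at an adjusted p of at most 0.05 over the 19051 genes that averaged 1 TPM or more, together with a change of 0.58 or more in log2(FC) either way, from limma with Benjamini-Hochberg adjustment. The SE is that of log2(FC), and all adjusted p-values below come from this test with n = 3 libraries per group. Of the 42 genes, 38 passed the filter on the mean, and f9a, itih3a.2, hp and TFR2 did not. TPM keeps no depth, so the values do not show the number of reads behind them, and the study's numbers of sequenced fragments were not used here. The larvae are whole bodies, so fewer hepatocytes, less RNA per hepatocyte and a change in other tissues that express a gene cannot be told apart in any of these values.

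Some libraries stood apart from others of their group. SHMO 1 held the highest level of the 9 libraries for 26 of the 38 genes tested, and was the highest SHMO library for 33. SBMO 1 held the lowest level of the 9 for 28 genes, and SBMO 3 was the highest SBMO library for 34. Ctrl 3 was the highest Ctrl library for 30. The summed level of the 42 genes was 5611, 5137 and 6814 TPM in Ctrl, 5904, 4148 and 4701 TPM in SHMO and 2511, 3002 and 3828 TPM in SBMO. The SBMO libraries thus lay below all others in this sum, while SHMO 1 lay among the Ctrl libraries. The same SHMO 1 library also held more exocrine pancreas transcripts (2513 TPM summed over 21 marker genes) than SHMO 2 (190.4 TPM) and SHMO 3 (163.6 TPM).

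In SBMO, 24 of the 38 genes tested were lower than in Ctrl (63.2%) and 0 were higher, against 11.5% of all genes tested called lower and 8.31% called higher (19.8% in either direction). In limma at an unadjusted p under 0.05, 1 gene (fabp10b) lay above and 29 lay below, beside 3873 above and 3639 below of all 19051 genes tested. The falls ran from 1.60-fold for RBP4 to 5.95-fold for one of the 2 genes with the symbol PROC. The median log2(FC) was -1.31, beside 0.05 over all genes tested, and it ran from -1.56 to -0.999 when each library was left out in turn. In 29 of the 38 genes (76.3%) every SBMO library was under every Ctrl library, a pattern shown by 20.1% of all genes tested. The reverse held for 0 of the 38 and for 20.2% of all genes. The number called lower rested on single libraries. It was 12 without Ctrl 2, 9 without Ctrl 3, 14 without SBMO 1 and 10 without SBMO 2. Over all genes tested, the 2189 lower calls became 1279, 785, 1719 and 699 in these settings. Among the genes described here, 19 were lower without Ctrl 1, 28 without SBMO 3 and 27 without SHMO 1, beside 1317, 2104 and 2434 of all genes. In 9 genes the call held under every alternative in which the gene was tested, and these were the 3 genes with the symbol F7, PROC (ENSDARG00000093079), both genes with the symbol VTN, agt, fabp10a and fetub. PROC (ENSDARG00000093079) and F7 (ENSDARG00000100782) were not tested in the alternative that kept genes averaging 5 TPM or more. F7 (ENSDARG00000100782) averaged 1.32 TPM over the 9 libraries, with means of 2.45 TPM in Ctrl, 1.17 TPM in SHMO and 0.35 TPM in SBMO. Its Ctrl libraries, the group where it was high, thus carried it over the filter of 1 TPM. The call on it also held with no filter on low values. The losses given gene by gene below are those on leaving out a library.

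In SHMO, by contrast, 1 of the 38 genes was higher than in Ctrl (hpxa) and 1 was lower (RBP4), against 3.58% and 5.32% of all genes tested (8.9% in either direction). In limma at an unadjusted p under 0.05, 1 gene lay above and 6 below, beside 2863 above and 2731 below of all 19051 genes tested. The 6 below are thus near the background. The median log2(FC) of -0.03 (0.04 over all genes tested) had no stable sign, being 0.19 without Ctrl 3, 0.24 without SHMO 2, 0.06 without SHMO 3 and -0.31 without SHMO 1. The 2 groups lay apart, with SHMO the lower, in 5 of 38 genes (13.2%; 13.4% of all genes) and with SHMO the higher in 2 (5.3%; 20.4% of all genes).

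Between the injected groups, 14 of the 38 genes (36.8%) were lower in SBMO than in SHMO and 0 were higher, against 2.74% and 1.83% of all genes tested. In limma at an unadjusted p under 0.05, 0 lay above and 28 below, beside 1899 above and 2276 below of all 19051 genes tested. The falls ran from 2.65-fold for F7 (ENSDARG00000100782) to 11.98-fold for hpxa. The median log2(FC) was -1.35 (0.02 over all genes), from -1.63 to -0.967 with each library left out. The SBMO libraries all lay under the SHMO libraries in 24 of the 38 genes (63.2%; 17.8% of all genes) and above them in 0 (9.83% of all genes). This count of 14 fell to 1 when only the 2 groups compared entered the model, in which 13 of the 14 calls were lost. It was 8 without Ctrl 1, 6 without Ctrl 2, 6 without SBMO 1, 2 without SBMO 2, 2 without SHMO 1 and 3 without SHMO 3. Over all genes tested, the 522 lower calls became 50 with only the 2 groups. They became 274 without Ctrl 1, 196 without Ctrl 2, 269 without SBMO 1, 73 without SBMO 2 and 124 without SHMO 1. PROC (ENSDARG00000093079) was the 1 gene of the 14 whose call held under every alternative in which it was tested.

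**Figure D1:**
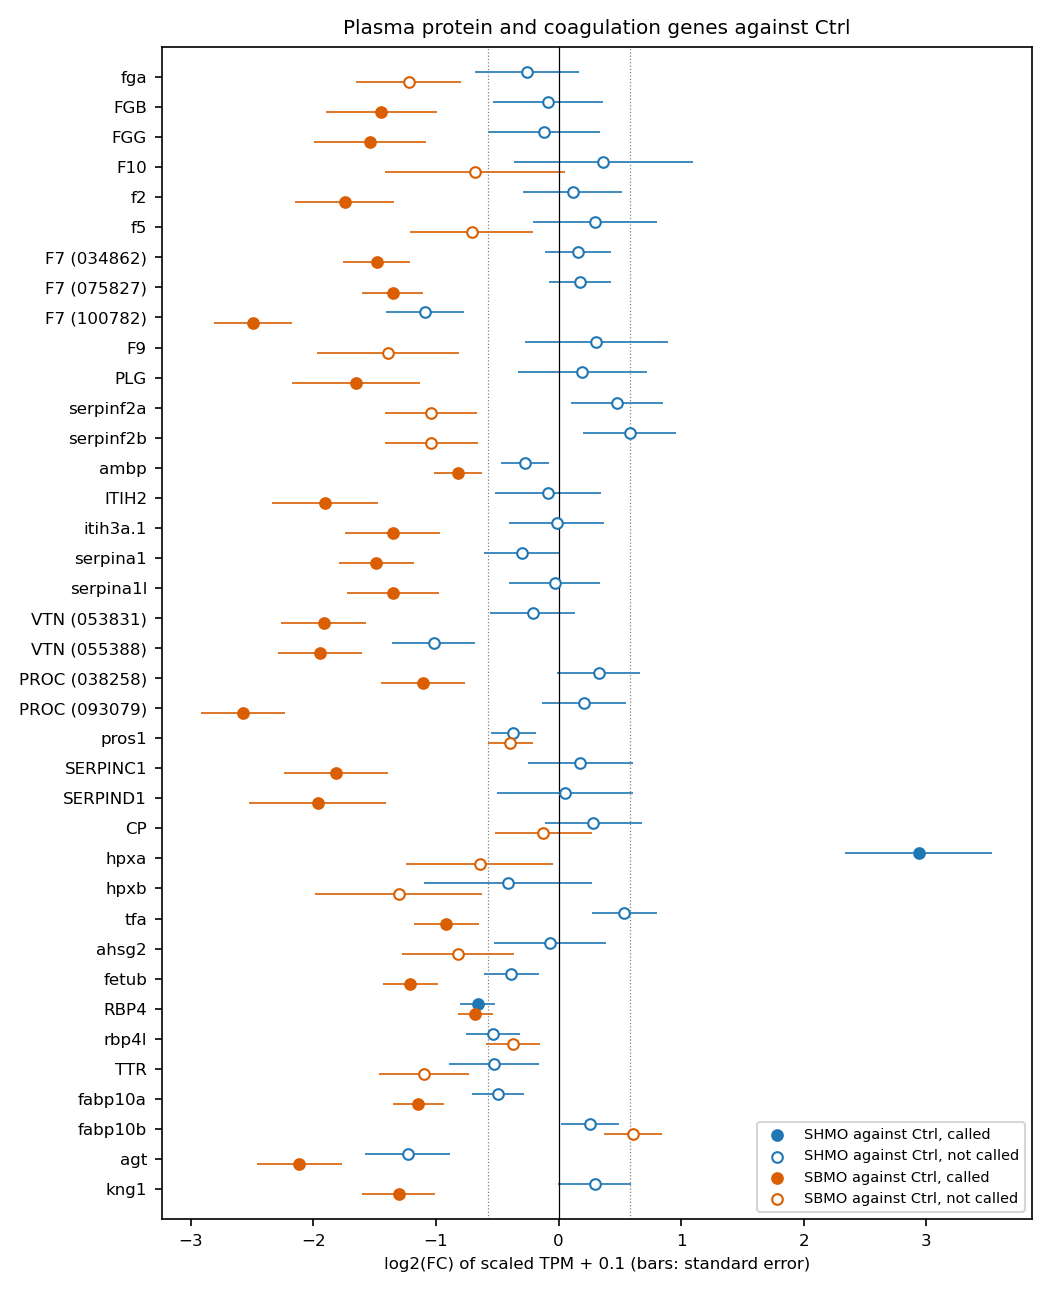
Log2(FC) with its SE for each of the 38 genes tested, SHMO against Ctrl and SBMO against Ctrl side by side, ordered by role, with filled symbols for genes called. The SBMO values lie below 0 for 37 of 38 genes and 24 of them are filled, whereas the SHMO values scatter around 0 with hpxa at 2.94 and RBP4 at -0.66 filled.

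Setting the 3 comparisons side by side, 11 genes were lower in SBMO than in both Ctrl and SHMO. They were f2, the 3 F7 genes, both PROC genes, SERPINC1, ITIH2, VTN (ENSDARG00000053831), tfa and kng1. Another 12 genes were lower in SBMO than in Ctrl with no call in either other comparison, namely FGB, FGG, PLG, SERPIND1, ambp, itih3a.1, serpina1, serpina1l, VTN (ENSDARG00000055388), fetub, fabp10a and agt. RBP4 was lower in both injected groups than in Ctrl. hpxa was higher in SHMO than in both other groups, and serpinf2a and serpinf2b had a single call each, lower in SBMO than in SHMO. No comparison called the remaining 11, which were fga, F10, f5, F9, pros1, CP, hpxb, ahsg2, rbp4l, TTR and fabp10b. The comparisons share libraries, so these patterns are not independent of each other. How many of all genes tested show each pattern was not counted, so the sizes of these sets have no background beside them.

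Fibrinogen is built from 3 chains, encoded by fga, fgb and fgg, and is the substrate of thrombin. FGG was measured at 53.6, 58.7 and 83.8 TPM in Ctrl, 101, 47.1 and 49.9 TPM in SHMO and 12.01, 18.2 and 46.8 TPM in SBMO. Its SBMO libraries lay below every Ctrl and every SHMO library, with SBMO 3 only just under SHMO 2. FGG was 2.91-fold lower in SBMO than in Ctrl (log2(FC) -1.54, SE 0.46, adjusted p = 0.0387), and its difference from SHMO did not pass (log2(FC) -1.42, SE 0.46, adjusted p = 0.108). FGB stood at 54.1, 65.2 and 89.9 TPM in Ctrl, 112, 48.8 and 55.98 TPM in SHMO and 13.9, 21.6 and 49.99 TPM in SBMO. It was 2.72-fold lower in SBMO than in Ctrl (log2(FC) -1.45, SE 0.45, adjusted p = 0.0453). SBMO 3 overlapped with SHMO 2, and FGB had a log2(FC) of -1.36 between SBMO and SHMO with adjusted p = 0.116. The third chain, fga, ran from 15.7 to 47.9 TPM in SBMO and from 50.7 to 70.0 TPM in Ctrl, with no overlap, but missed the threshold (log2(FC) -1.22, SE 0.43, adjusted p = 0.0632). The fga call appeared without SBMO 3 or SHMO 1. The FGG call was lost without Ctrl 1, Ctrl 2, Ctrl 3, SBMO 1, SBMO 2, SHMO 2 or SHMO 3 (adjusted p from 0.0501 to 0.129), and the FGB call without Ctrl 1, Ctrl 2, Ctrl 3, SBMO 1, SBMO 2, SHMO 2 or SHMO 3 (adjusted p from 0.0547 to 0.147). In SHMO the log2(FC) of the chains ranged from -0.26 to -0.09, and all 3 were highest in SHMO 1.

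f2 encodes prothrombin, the precursor of thrombin. Its level was 23.2, 29.1 and 39.0 TPM in Ctrl, 55.5, 23.3 and 29.8 TPM in SHMO and 5.42, 8.13 and 14.9 TPM in SBMO. All SBMO libraries lay under all others. f2 was 3.35-fold lower in SBMO than in Ctrl (log2(FC) -1.75, SE 0.40, adjusted p = 0.0184) and 3.63-fold lower than in SHMO (log2(FC) -1.86, SE 0.40, adjusted p = 0.0314). In SHMO against Ctrl f2 had a log2(FC) of 0.12 with adjusted p = 0.87. The call against Ctrl was lost without Ctrl 2, Ctrl 3 or SBMO 2 (adjusted p from 0.0526 to 0.0704), and the call against SHMO without Ctrl 1, Ctrl 2, SBMO 1, SBMO 2, SHMO 1 or SHMO 3 (adjusted p from 0.0515 to 0.13).

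Factor VII starts the cascade together with tissue factor. In all, 3 rows carried the symbol F7, and which of the zebrafish genes f7, f7i and f7l each of them is could not be told from the symbols. Whether each of the 3 encodes a factor VII that starts the cascade was not tested. In the RefSeq annotation of GRCz12tu, f7l, f7, f7i and f10 follow each other as neighbours, and the division of reads between such copies is uncertain. F7 (ENSDARG00000034862) was measured at 5.19, 6.77 and 7.09 TPM in Ctrl, 10.3, 5.09 and 7.63 TPM in SHMO and 2.08, 1.76 and 2.74 TPM in SBMO. F7 (ENSDARG00000075827), the highest of the 3 in every library, was at 9.54, 11.03 and 12.96 TPM in Ctrl, 16.6, 10.5 and 13.1 TPM in SHMO and 4.0, 3.1 and 6.06 TPM in SBMO. In both, Ctrl and SHMO overlapped and every SBMO library lay under all others. The first was 2.8-fold lower in SBMO than in Ctrl (log2(FC) -1.49, SE 0.27, adjusted p = 0.00917) and 3.12-fold lower than in SHMO (log2(FC) -1.64, SE 0.27, adjusted p = 0.0114). The second was 2.56-fold lower than in Ctrl (log2(FC) -1.35, SE 0.25, adjusted p = 0.00981) and 2.89-fold lower than in SHMO (log2(FC) -1.53, SE 0.25, adjusted p = 0.0115). Their calls against SHMO were lost without SBMO 2 (adjusted p = 0.0703 and 0.0666), and for the second also without SHMO 1 (adjusted p = 0.051).

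The lowest of the 3, F7 (ENSDARG00000100782), was at 2.5, 2.76 and 2.08 TPM in Ctrl, 1.59, 0.91 and 1.02 TPM in SHMO and 0.28, 0.32 and 0.45 TPM in SBMO, so the 3 groups were ordered without overlap, Ctrl above SHMO above SBMO. The fall was 5.64-fold in SBMO against Ctrl (log2(FC) -2.496, SE 0.32, adjusted p = 0.00445) and 2.65-fold in SBMO against SHMO (log2(FC) -1.41, SE 0.32, adjusted p = 0.037). SHMO against Ctrl missed the threshold (log2(FC) -1.09, SE 0.32, adjusted p = 0.0584), and passed it without SBMO 1 or SHMO 1 and under 7 of the other alternatives. The call against SHMO was lost without Ctrl 1, Ctrl 2, SBMO 1, SBMO 2, SHMO 1, SHMO 2 or SHMO 3 (adjusted p from 0.0532 to 0.118).

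Of the other clotting factors none was called in any comparison. F10, whose product joins with factor V to activate prothrombin, ranged from 11.6 to 12.2 TPM in Ctrl, from 9.69 to 28.8 TPM in SHMO and from 1.68 to 17.1 TPM in SBMO. The SBMO spread of F10 came from SBMO 1, since SBMO 2 (13.2 TPM) and SBMO 3 (17.1 TPM) lay above all Ctrl libraries. F9, a factor that activates factor X, ranged from 1.86 to 2.61 TPM in Ctrl, 1.97 to 5.23 TPM in SHMO and 0.21 to 1.39 TPM in SBMO. SBMO lay under both other groups without overlap, but did not pass (log2(FC) -1.39, SE 0.58, adjusted p = 0.104 against Ctrl). f5 ranged from 0.89 to 7.13 TPM over the 9 libraries. f9a, with 0.13 to 1.00 TPM, was not tested.

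Plasminogen, encoded by PLG, is the precursor of plasmin, the enzyme that dissolves fibrin. PLG was at 14.9, 19.2 and 26.2 TPM in Ctrl, 45.1, 15.9 and 18.1 TPM in SHMO and 3.04, 5.54 and 13.3 TPM in SBMO. No SBMO library reached the lowest Ctrl or SHMO library. PLG was 3.14-fold lower in SBMO than in Ctrl (log2(FC) -1.65, SE 0.53, adjusted p = 0.0475), while against SHMO it did not pass (log2(FC) -1.85, SE 0.53, adjusted p = 0.0756). The PLG call was lost without Ctrl 1, Ctrl 2, Ctrl 3, SBMO 1, SBMO 2, SHMO 2 or SHMO 3 (adjusted p from 0.0567 to 0.152). Plasmin is held in check by alpha-2-antiplasmin, which serpinf2a and serpinf2b encode. serpinf2a was at 8.67, 10.1 and 14.9 TPM in Ctrl, 24.97, 12.2 and 13.3 TPM in SHMO and 3.6, 4.31 and 8.98 TPM in SBMO. serpinf2b was at 17.7, 19.4 and 28.9 TPM in Ctrl, 47.97, 28.01 and 28.4 TPM in SHMO and 6.24, 9.22 and 18.8 TPM in SBMO. In both, SBMO 3 reached into the Ctrl range, and the lowest SHMO library lay above every SBMO library. serpinf2a was 2.87-fold lower in SBMO than in SHMO (log2(FC) -1.52, SE 0.38, adjusted p = 0.0493) and serpinf2b 3.07-fold lower (log2(FC) -1.62, SE 0.38, adjusted p = 0.0416). Against Ctrl they had log2(FC) values of -1.04 each with adjusted p = 0.0684 and 0.0717. Each of these 2 calls was lost without any 1 of 8 libraries, all but SBMO 3 (adjusted p from 0.0562 to 0.188).

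**Figure D2:**
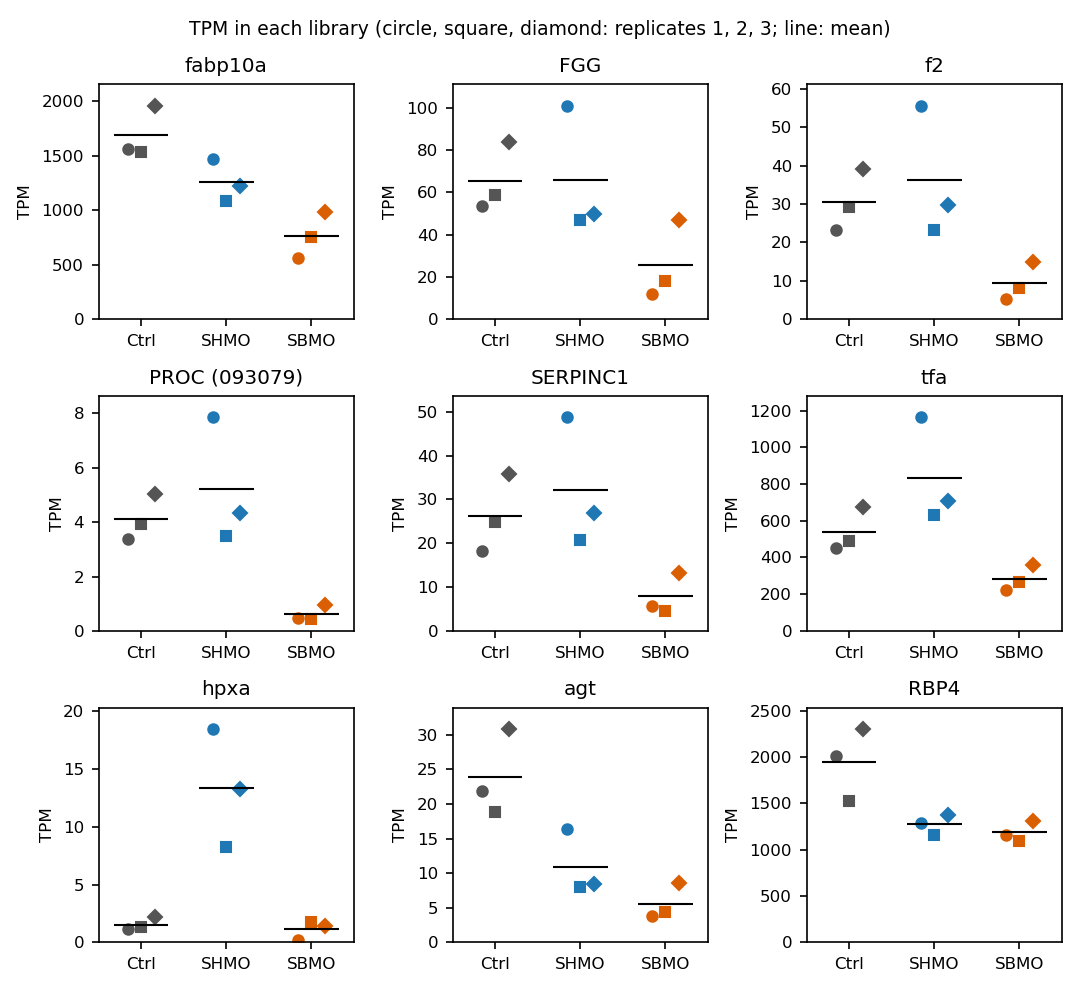
TPM of 9 of the genes in each library, by group, each panel with its own axis starting at 0, with a circle, square and diamond for replicates 1, 2 and 3 and a line at the group mean. fabp10a, FGG, f2, PROC (ENSDARG00000093079), SERPINC1, tfa and agt have all SBMO points under all Ctrl points, whereas hpxa is raised in the 3 SHMO libraries (8.22 to 18.4 TPM) and RBP4 is lower in both injected groups.

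The anticoagulants included the largest fall against Ctrl. Protein C, once activated, degrades the cofactors of the cascade. In the table, 2 rows carried the symbol PROC, and they could not be assigned to proca or its paralog. PROC (ENSDARG00000093079) was at 3.39, 3.93 and 5.02 TPM in Ctrl, 7.85, 3.5 and 4.33 TPM in SHMO and 0.48, 0.45 and 0.94 TPM in SBMO. Its SBMO libraries lay far under all others, with the highest SBMO library below 1 TPM. It was 5.95-fold lower in SBMO than in Ctrl (log2(FC) -2.57, SE 0.34, adjusted p = 0.00466) and 6.87-fold lower than in SHMO (log2(FC) -2.78, SE 0.34, adjusted p = 0.00362), and both calls held under every alternative but that of 5 TPM or more, where it was not tested. PROC (ENSDARG00000038258) was at 7.49, 10.3 and 11.6 TPM in Ctrl, 20.3, 8.96 and 11.2 TPM in SHMO and 4.66, 2.83 and 6.29 TPM in SBMO. It was 2.15-fold lower in SBMO than in Ctrl (log2(FC) -1.11, SE 0.34, adjusted p = 0.0433) and 2.7-fold lower than in SHMO (log2(FC) -1.43, SE 0.34, adjusted p = 0.0436). The groups did not overlap in either comparison. Its call against Ctrl was lost without Ctrl 1, Ctrl 2, Ctrl 3, SBMO 1, SBMO 2 or SHMO 3 (adjusted p from 0.0507 to 0.15) and its call against SHMO without Ctrl 1, Ctrl 2, Ctrl 3, SBMO 1, SBMO 2, SHMO 1 or SHMO 3 (adjusted p from 0.0603 to 0.181).

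SERPINC1 encodes antithrombin, the main inhibitor of thrombin and factor Xa. It was at 18.3, 24.8 and 35.9 TPM in Ctrl, 48.7, 20.6 and 26.98 TPM in SHMO and 5.73, 4.54 and 13.3 TPM in SBMO. SBMO lay under both other groups without overlap, and SBMO 3 held more than the other 2 SBMO libraries. The fall was 3.52-fold against Ctrl (log2(FC) -1.82, SE 0.43, adjusted p = 0.0192) and 3.99-fold against SHMO (log2(FC) -1.996, SE 0.43, adjusted p = 0.0302). These calls were lost without Ctrl 2, Ctrl 3, SBMO 1 or SBMO 2 (adjusted p from 0.0521 to 0.0791) and without Ctrl 2, SBMO 1, SBMO 2, SHMO 1 or SHMO 3 (adjusted p from 0.0663 to 0.141), respectively. SERPIND1, which encodes heparin cofactor II, was at 2.2, 3.69 and 5.61 TPM in Ctrl, 8.37, 2.76 and 2.53 TPM in SHMO and 0.55, 0.55 and 1.83 TPM in SBMO. It was 3.9-fold lower in SBMO than in Ctrl (log2(FC) -1.96, SE 0.56, adjusted p = 0.0337), a call lost without Ctrl 2, Ctrl 3, SBMO 1 or SBMO 2 (adjusted p from 0.0858 to 0.12), and did not pass against SHMO (log2(FC) -2.02, SE 0.56, adjusted p = 0.0695). pros1 encodes protein S, the cofactor of activated protein C, and is also expressed outside the liver in mammals. With 6.33 to 7.24 TPM in SBMO and 7.87 to 10.8 TPM in Ctrl it showed no call (log2(FC) -0.39, SE 0.18, adjusted p = 0.141).

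Read together, 9 of the 38 member genes tested carry the symbols of vitamin K-dependent proteins: f2, the 3 F7 genes, F9, F10, both PROC genes and pros1. The vitamin K-dependent genes proza and GAS6 were not members and are not counted here. In SBMO neither was called, with log2(FC) of 0.20 and -0.06 against Ctrl and 0.58 and 0.20 against SHMO. In SBMO, 6 of the 9 were lower than in Ctrl and 6 were lower than in SHMO (11.5% and 2.74% of all genes), with medians of -1.39 and -1.53. In SHMO 0 of the 9 were called against Ctrl, with a median of 0.18. In limma 1 of them lay below at an unadjusted p under 0.05, beside 2731 of all 19051 genes tested. The 6 were the same genes in both comparisons, namely f2, the 3 F7 genes and both PROC genes. Copies under 2 symbols thus make up most of this count, and F7 (ENSDARG00000100782) passed the filter on the mean only through its Ctrl libraries. F9, F10 and pros1 were the 3 members without a call.

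Of the protease inhibitors and matrix proteins, 7 of 7 tested were lower in SBMO than in Ctrl (11.5% of all genes). serpina1 and serpina1l, whose products resemble alpha-1-antitrypsin, the inhibitor of neutrophil elastase, are neighbours in the RefSeq annotation, so that the division of reads between them is uncertain. serpina1 was at 217, 214 and 284 TPM in Ctrl, 289.8, 164 and 171 TPM in SHMO and 53.8, 91.2 and 118 TPM in SBMO. serpina1l was at 176, 182 and 226 TPM in Ctrl, 281, 175 and 158 TPM in SHMO and 40.8, 78.7 and 130.4 TPM in SBMO. In both the highest SBMO library lay under the lowest Ctrl and SHMO libraries. The fall against Ctrl was 2.8-fold for serpina1 (log2(FC) -1.49, SE 0.31, adjusted p = 0.0134) and 2.55-fold for serpina1l (log2(FC) -1.35, SE 0.37, adjusted p = 0.031). Against SHMO neither passed, with adjusted p = 0.0575 and 0.075. The calls against Ctrl were lost for serpina1 without Ctrl 3 (adjusted p = 0.0544) and for serpina1l without Ctrl 1, Ctrl 2, Ctrl 3, SBMO 1 or SBMO 2 (adjusted p from 0.0585 to 0.105).

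ambp encodes a precursor that is cut into alpha-1-microglobulin, which binds heme, and bikunin, the light chain of the inter-alpha-trypsin inhibitors. ambp was at 74.3, 73.5 and 101 TPM in Ctrl, 82.1, 62.9 and 68.99 TPM in SHMO and 38.99, 42.7 and 57.5 TPM in SBMO. It was 1.77-fold lower in SBMO than in Ctrl (log2(FC) -0.82, SE 0.20, adjusted p = 0.0199), the smallest fall of the 7. The heavy chains that are joined to bikunin and bind hyaluronan in the matrix are encoded by the ITIH genes. ITIH2 was at 12.1, 15.4 and 23.4 TPM in Ctrl, 28.7, 11.02 and 13.2 TPM in SHMO and 2.53, 4.29 and 6.91 TPM in SBMO. No SBMO library of ITIH2 reached either of the other groups. It was 3.75-fold lower than in Ctrl (log2(FC) -1.91, SE 0.43, adjusted p = 0.0178) and 3.53-fold lower than in SHMO (log2(FC) -1.82, SE 0.43, adjusted p = 0.0444). itih3a.1 was at 4.07, 5.43 and 7.24 TPM in Ctrl, 9.2, 3.8 and 5.07 TPM in SHMO and 1.24, 2.59 and 2.61 TPM in SBMO, and was 2.56-fold lower in SBMO than in Ctrl (log2(FC) -1.35, SE 0.39, adjusted p = 0.0354). Its neighbour itih3a.2, under the filter, was at 1.12, 1.31 and 1.92 TPM in Ctrl, 0.64, 0.26 and 0.2 TPM in SHMO and 0.46, 0.33 and 0.45 TPM in SBMO. Its SHMO and SBMO libraries both lay under the Ctrl libraries, unlike itih3a.1, where SHMO overlapped with Ctrl; the difference between them was not tested. The calls against Ctrl were lost for ambp without Ctrl 3, SBMO 1 or SBMO 2 (adjusted p from 0.052 to 0.0689), for ITIH2 without Ctrl 2, Ctrl 3 or SBMO 2 (adjusted p from 0.0506 to 0.069) and for itih3a.1 without Ctrl 2, Ctrl 3, SBMO 1, SBMO 2 or SHMO 3 (adjusted p from 0.0544 to 0.122). That of ITIH2 against SHMO was lost without any 1 of 8 libraries, all but SBMO 3 (adjusted p from 0.0543 to 0.155).

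Vitronectin is an adhesive glycoprotein of plasma and matrix that in mammals stabilizes an inhibitor of plasminogen activators. The symbol VTN was carried by 2 rows, and which is vtna and which vtnb could not be told from the symbols. VTN (ENSDARG00000053831) was at 15.4, 18.6 and 26.8 TPM in Ctrl, 29.8, 13.1 and 14.5 TPM in SHMO and 4.6, 3.87 and 7.43 TPM in SBMO. VTN (ENSDARG00000055388) was at 9.11, 11.2 and 15.2 TPM in Ctrl, 9.37, 4.19 and 5.32 TPM in SHMO and 2.15, 2.62 and 4.28 TPM in SBMO. The first lay on either side of the Ctrl range in SHMO, while the second was at or under 5.32 TPM in SHMO 2 and SHMO 3, below all Ctrl libraries. Against Ctrl the SBMO levels were 3.77-fold lower for the first (log2(FC) -1.92, SE 0.34, adjusted p = 0.00888) and 3.86-fold lower for the second (log2(FC) -1.95, SE 0.34, adjusted p = 0.00826). Against SHMO the first was 3.26-fold lower (log2(FC) -1.70, SE 0.34, adjusted p = 0.0257), a call lost without Ctrl 2, SBMO 1, SBMO 2, SHMO 1 or SHMO 3 (adjusted p from 0.0592 to 0.126), and the second did not pass (log2(FC) -0.93, SE 0.34, adjusted p = 0.148). For SHMO against Ctrl the second had log2(FC) -1.02, SE 0.34, adjusted p = 0.0848, which passed without SHMO 1.

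Among the metal and heme carriers, tfa encodes transferrin, the iron carrier of plasma, and was the third most abundant of the genes. tfa was at 449, 488 and 676 TPM in Ctrl, 1163, 633 and 709 TPM in SHMO and 222, 268 and 358 TPM in SBMO. SBMO lay under both other groups, and SHMO 1 stood well above the rest. tfa was 1.89-fold lower in SBMO than in Ctrl (log2(FC) -0.92, SE 0.27, adjusted p = 0.0356) and 2.74-fold lower than in SHMO (log2(FC) -1.45, SE 0.27, adjusted p = 0.018). SHMO against Ctrl did not pass (log2(FC) 0.54, SE 0.27, adjusted p = 0.205). The call against Ctrl was lost without Ctrl 2, Ctrl 3, SBMO 1, SBMO 2 or SHMO 3 (adjusted p from 0.053 to 0.122) and that against SHMO without SBMO 2, SHMO 1 or SHMO 3 (adjusted p from 0.0505 to 0.0833). As a share of the summed TPM of the 42 genes, tfa held 8.00% to 9.92% in Ctrl, 8.85% to 9.34% in SBMO and 15.1% to 19.7% in SHMO.

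hpxa, one of 2 genes for hemopexin, the plasma protein that binds free heme, was the 1 gene called higher in SHMO. It was at 1.14, 1.31 and 2.17 TPM in Ctrl, 18.4, 8.22 and 13.3 TPM in SHMO and 0.24, 1.8 and 1.45 TPM in SBMO. The lowest SHMO library held more than 3 times the highest level of the other groups. hpxa was 7.67-fold higher in SHMO than in Ctrl (log2(FC) 2.94, SE 0.60, adjusted p = 0.0182) and 11.98-fold lower in SBMO than in SHMO (log2(FC) -3.58, SE 0.60, adjusted p = 0.0124), while SBMO overlapped with Ctrl (log2(FC) -0.64, SE 0.60, adjusted p = 0.446). The call in SHMO was lost without Ctrl 1, Ctrl 2 or SHMO 3 (adjusted p from 0.0676 to 0.0779), and that between SBMO and SHMO without SHMO 1 or SHMO 3 (adjusted p from 0.0503 to 0.0603). Its paralog hpxb, at 0.98 to 8.47 TPM in SHMO and 1.90 to 6.13 TPM in Ctrl, showed no call (log2(FC) -0.41, SE 0.69, adjusted p = 0.712). hp, which encodes haptoglobin, the binder of free hemoglobin, was between 0.01 and 1.19 TPM and was not tested, with its highest level in SHMO 1. CP encodes ceruloplasmin, a copper-carrying ferroxidase. It ranged from 27.2 to 29.1 TPM in Ctrl, 30.2 to 41.7 TPM in SHMO and 11.7 to 39.2 TPM in SBMO, with every SHMO library above Ctrl and SBMO 1 alone below it, and no comparison passed. TFR2, the iron-sensing receptor, was at or below 1.44 TPM and was not tested.

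The most abundant of the genes was RBP4, which encodes the plasma carrier of retinol. RBP4 was at 2012, 1529.5 and 2303 TPM in Ctrl, 1292, 1162 and 1379 TPM in SHMO and 1162, 1090.5 and 1312 TPM in SBMO. Both injected groups lay under the lowest Ctrl library and overlapped each other. RBP4 was 1.58-fold lower in SHMO (log2(FC) -0.66, SE 0.14, adjusted p = 0.0215) and 1.6-fold lower in SBMO than in Ctrl (log2(FC) -0.68, SE 0.14, adjusted p = 0.0137), and SBMO against SHMO was not called (log2(FC) -0.02, SE 0.14, adjusted p = 0.953). The SHMO call was lost without Ctrl 1, Ctrl 3, SHMO 2 or SHMO 3 (adjusted p from 0.0573 to 0.0975) and with quantile normalization, and the SBMO call without Ctrl 3 or SBMO 2 (adjusted p from 0.0444 to 0.0558), in the former case because the log2(FC) fell short of the threshold. rbp4l was at 464, 355 and 422 TPM in Ctrl, 247, 322 and 333 TPM in SHMO and 224, 368 and 377 TPM in SBMO, and it showed no call (log2(FC) -0.53, SE 0.22, adjusted p = 0.142 in SHMO). The correlation with the median of the other genes was 0.176 for rbp4l and 0.486 for RBP4. Whether the transcripts of either came from the liver was not tested. TTR encodes transthyretin, which carries thyroid hormone and docks to RBP4 in mammals. TTR ran from 44.7 to 61.8 TPM in Ctrl and from 12.8 to 36.6 TPM in SBMO, without overlap, and missed the threshold (log2(FC) -1.10, SE 0.37, adjusted p = 0.055). It passed with no scaling, with quantile normalization, without SBMO 3 and without SHMO 1.

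Fetuins are cystatin-like plasma glycoproteins, and fetuin-A inhibits calcification in mammals. fetub was at 178, 222 and 142 TPM in Ctrl, 171, 115 and 148 TPM in SHMO and 63.4, 76.7 and 90.4 TPM in SBMO. fetub was 2.31-fold lower in SBMO than in Ctrl (log2(FC) -1.21, SE 0.22, adjusted p = 0.00964), with SBMO under both other groups. ahsg2 ranged from 2.31 to 8.31 TPM in SBMO and from 7.84 to 12.5 TPM in Ctrl, with SBMO 2 inside the Ctrl range, and was not called (log2(FC) -0.82, SE 0.46, adjusted p = 0.203).

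agt encodes angiotensinogen, from which the blood pressure hormone angiotensin is cut. It was at 21.8, 18.9 and 30.9 TPM in Ctrl, 16.5, 8.0 and 8.43 TPM in SHMO and 3.83, 4.34 and 8.66 TPM in SBMO. All injected libraries lay under the lowest Ctrl library. agt was 4.33-fold lower in SBMO than in Ctrl (log2(FC) -2.12, SE 0.35, adjusted p = 0.00702), whereas SHMO against Ctrl missed the threshold (log2(FC) -1.23, SE 0.35, adjusted p = 0.0533) and passed without SBMO 1, SBMO 3 or SHMO 1 and under 3 of the other alternatives. kng1 encodes kininogen, the source of bradykinin and a cofactor of contact activation in mammals. kng1 was at 20.9, 24.6 and 21.04 TPM in Ctrl, 39.3, 20.7 and 28.4 TPM in SHMO and 6.35, 7.74 and 13.8 TPM in SBMO. It was 2.47-fold lower in SBMO than in Ctrl (log2(FC) -1.31, SE 0.30, adjusted p = 0.0182) and 3.03-fold lower than in SHMO (log2(FC) -1.60, SE 0.30, adjusted p = 0.0203). The SHMO range covered the Ctrl range, and the SBMO libraries lay under both. The kng1 calls were lost without Ctrl 2, Ctrl 3 or SBMO 2 (adjusted p from 0.0569 to 0.0692) and without SBMO 2, SHMO 1 or SHMO 3 (adjusted p from 0.0669 to 0.1).

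fabp10a, the intracellular marker of hepatocytes, was at 1567, 1536 and 1958 TPM in Ctrl, 1467, 1086 and 1222 TPM in SHMO and 563, 756 and 989 TPM in SBMO. The 3 groups did not overlap, in the order Ctrl, SHMO, SBMO. fabp10a was 2.21-fold lower in SBMO than in Ctrl (log2(FC) -1.14, SE 0.21, adjusted p = 0.00948), and neither SHMO against Ctrl (log2(FC) -0.49, SE 0.21, adjusted p = 0.153) nor SBMO against SHMO (log2(FC) -0.65, SE 0.21, adjusted p = 0.109) passed. fabp10b, its paralog, was at 2.75 to 4.26 TPM in Ctrl and 3.83 to 6.40 TPM in SBMO, and was the 1 gene of the 38 with a positive log2(FC) in SBMO (log2(FC) 0.61, SE 0.23, adjusted p = 0.0839).

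**Figure D3:**
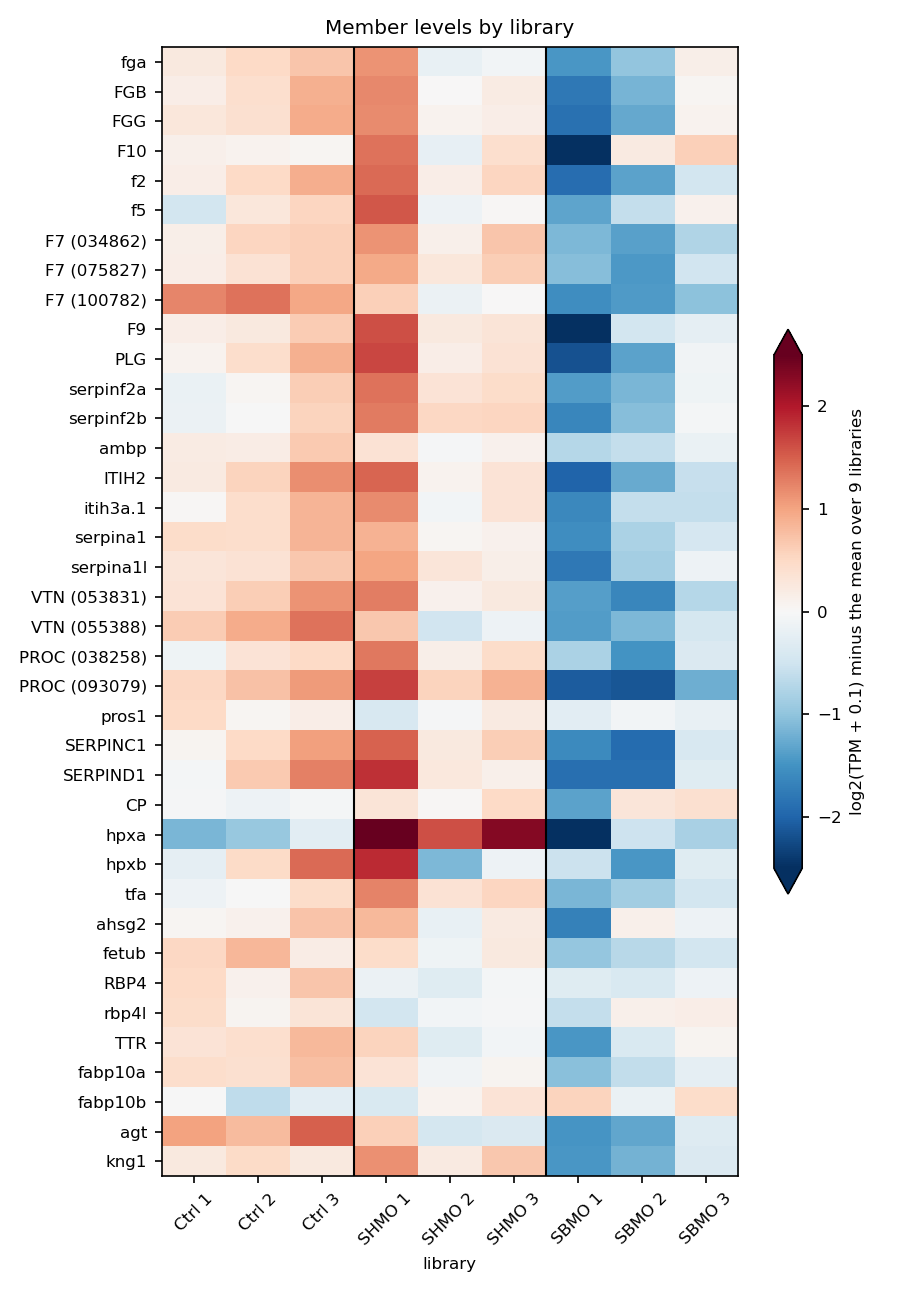
Log2(TPM + 0.1) of the 38 genes tested in each of the 9 libraries, as the difference from the gene's mean over the 9, with genes in rows grouped by role and libraries in columns grouped by treatment. SHMO 1 is the highest library for 26 genes and SBMO 1 the lowest for 28. The rows least like the others are fabp10b, pros1 and rbp4l (correlations of -0.72, 0.122 and 0.176 with the median of the rest). These correlations were computed on scaled TPM, whereas the TPM drawn here are unscaled.

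Across the 9 libraries most of the genes varied together. The Pearson correlation of a gene with the median of the other 37 was at least 0.9 for 22 of 38, and was highest for ITIH2 and f2 (0.994 each). It was under 0.5 for 4 genes: fabp10b (-0.72), pros1 (0.122), rbp4l (0.176) and RBP4 (0.486). These values are a description over 9 libraries that share the 3 group means. RBP4, fabp10a and tfa held 70.8% of the summed TPM of the 42 genes on average, and 7 of the genes had a mean of at least 100 TPM in Ctrl and in SHMO, against 4 in SBMO. The 3 most abundant genes thus dominate any sum, whereas the median log2(FC) weighs each gene alike.

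Of 29 rows on a list of other clotting and fibrinolysis genes, 21 were tested, and in SBMO 5 were lower and 1 higher than in Ctrl (11.5% and 8.31% of all genes), with a median log2(FC) of -0.21. In SHMO 2 were higher and 0 lower than in Ctrl (3.58% and 5.32% of all genes), and in SBMO against SHMO 2 were lower (2.74%). CPB2, which encodes a carboxypeptidase that protects fibrin from lysis, was at 5.01, 4.42 and 6.82 TPM in Ctrl, 8.15, 5.5 and 5.16 TPM in SHMO and 1.69, 1.47 and 2.83 TPM in SBMO, and was lower in SBMO than in Ctrl (log2(FC) -1.41, SE 0.27, adjusted p = 0.0102) and than in SHMO (log2(FC) -1.54, SE 0.27, adjusted p = 0.0142). a2ml, related to the broad protease inhibitor alpha-2-macroglobulin, was lower in SBMO than in Ctrl (log2(FC) -2.502, SE 0.57, adjusted p = 0.0177) and than in SHMO (log2(FC) -2.35, SE 0.57, adjusted p = 0.0463). serpina10a went the other way. In mammals the gene of this name encodes an inhibitor of factor Xa that acts together with protein Z. serpina10a was at 27.5, 38.4 and 35.6 TPM in Ctrl, 69.8, 74.7 and 75.2 TPM in SHMO and 99.3, 107 and 91.3 TPM in SBMO, with 3 groups that did not overlap. It was higher in SHMO (log2(FC) 1.06, SE 0.18, adjusted p = 0.00949) and in SBMO (log2(FC) 1.58, SE 0.18, adjusted p = 0.00377) than in Ctrl. VKORC1L1, a paralog of the vitamin K epoxide reductase that recycles the vitamin, was higher in SHMO than in Ctrl (log2(FC) 0.86, SE 0.14, adjusted p = 0.0064). In SBMO against Ctrl only the size of its log2(FC) fell short (0.53, SE 0.14, adjusted p = 0.0248). SBMO against SHMO was not called for VKORC1L1 (adjusted p = 0.191).

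Of 16 transcription factors of hepatocytes tested, 8 were lower in SBMO than in Ctrl and 0 higher (11.5% and 8.31% of all genes), with a median log2(FC) of -0.68 and 5 values above 0. Several of them are also expressed in the gut and pancreas. HNF4A, a nuclear receptor that drives many hepatocyte genes, was at 4.13, 4.74 and 5.39 TPM in Ctrl, 4.14, 2.15 and 2.05 TPM in SHMO and 0.96, 0.55 and 1.08 TPM in SBMO, with log2(FC) -2.36, SE 0.31, adjusted p = 0.00445 in SBMO. NR1H4, the bile acid receptor, had log2(FC) -1.53, SE 0.24, adjusted p = 0.00596 and NR1I2, the xenobiotic receptor, had log2(FC) -1.18, SE 0.19, adjusted p = 0.00623. In SHMO NR1I2 was the 1 factor of 16 lower than in Ctrl (log2(FC) -0.80, SE 0.19, adjusted p = 0.0274), a count near the 5.32% of all genes. In SBMO against SHMO, 3 of the 16 factors were lower (2.74% of all genes).

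Among 28 hepatocyte enzymes tested, 20 were lower in SBMO than in Ctrl (11.5% of all genes) and 0 higher, with a median log2(FC) of -1.49. CYP7A1, the rate-limiting enzyme of bile acid synthesis, was at 22.99, 20.1 and 26.1 TPM in Ctrl, 14.1, 6.0 and 6.23 TPM in SHMO and 2.95, 1.09 and 2.52 TPM in SBMO, with log2(FC) -3.43, SE 0.37, adjusted p = 0.00377 in SBMO and log2(FC) -1.56, SE 0.37, adjusted p = 0.0297 in SHMO. fbp1b, of gluconeogenesis, had log2(FC) -2.23, SE 0.32, adjusted p = 0.00508 in SBMO. In SHMO 4 of the 28 enzymes were lower than in Ctrl (5.32% of all genes), and 9 of the 28 were lower in SBMO than in SHMO (2.74% of all genes). adh8a, an alcohol dehydrogenase, was lower in SHMO than in Ctrl (log2(FC) -2.91, SE 0.30, adjusted p = 0.000951), as was TAT, which breaks down tyrosine (log2(FC) -1.73, SE 0.28, adjusted p = 0.00722). Of 17 genes of the acute phase and iron response tested, 3 were lower in SHMO and 3 in SBMO than in Ctrl (5.32% and 11.5% of all genes) and 0 were higher in either. The SBMO count of calls is near that background, but the values as a set lay below 0. In SBMO against Ctrl 16 of the 17 were negative, with a median log2(FC) of -0.92 (0.05 over all genes tested). Every SBMO library was under every Ctrl library in 7 of the 17 (20.1% of all genes). Lower in SHMO than in Ctrl were SOCS3 (ENSDARG00000026611) (log2(FC) -0.86, SE 0.18, adjusted p = 0.0198), HMOX1 (log2(FC) -2.10, SE 0.47, adjusted p = 0.0245) and hamp, the iron hormone hepcidin (log2(FC) -3.03, SE 0.82, adjusted p = 0.0465). HMOX1 was also lower in SBMO (adjusted p = 0.0271). hamp was at 11.92, 4.07 and 10.15 TPM in Ctrl and 4.95, 0.28 and 0.45 TPM in SHMO, so these groups overlapped.

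**Figure D4:**
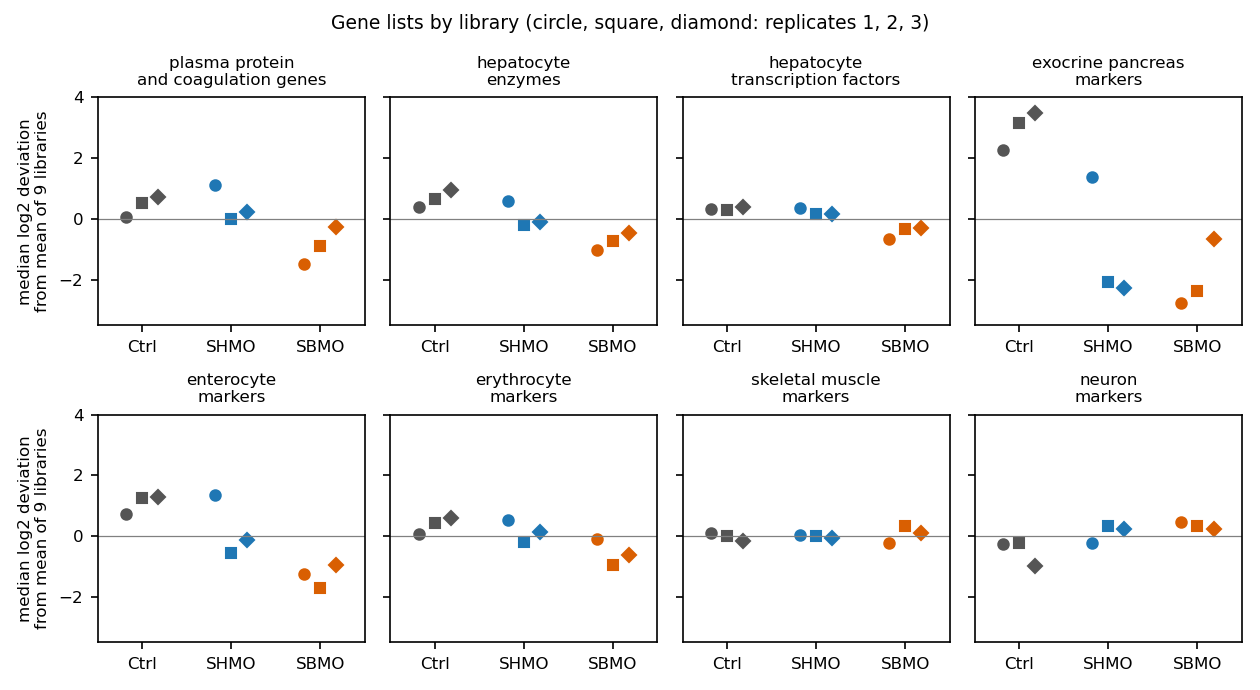
Median over the genes of 8 lists of the difference of log2(scaled TPM + 0.1) from the gene's mean over the 9 libraries, 1 point per library, by group. For the plasma protein and coagulation genes the medians run from 0.07 to 0.73 in Ctrl, from 0.004 to 1.104 in SHMO and from -1.48 to -0.27 in SBMO.

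Markers of other organs also differed between the groups of these whole-body libraries, and their part in the results was not tested. The summed level of 21 exocrine pancreas genes was 4172 to 7732 TPM in Ctrl, 163.6 to 2513 TPM in SHMO and 103.0 to 579.8 TPM in SBMO. Of 19 tested, 15 were lower in SHMO and 18 in SBMO than in Ctrl (5.32% and 11.5% of all genes). PTF1A, on the same list, went the other way. It was higher in SBMO than in Ctrl (log2(FC) 0.85, SE 0.24, adjusted p = 0.0342) and not called in SHMO (log2(FC) 0.60, SE 0.24, adjusted p = 0.135). The summed level of 20 enterocyte genes was 6185 to 7722 TPM in Ctrl, 3941 to 7768 TPM in SHMO and 1987 to 2765 TPM in SBMO. Of this sum, apoa1b held 2594 to 2791 TPM in Ctrl, 2973 to 4120 TPM in SHMO and 1267 to 1885 TPM in SBMO. Whether its transcripts came from the gut alone was not tested. Of 17 tested, 4 were lower in SHMO and 16 in SBMO than in Ctrl (5.32% and 11.5% of all genes). Of 12 neuron markers, 1 was higher in SHMO and 6 in SBMO than in Ctrl, beside 3.58% and 8.31% of all genes. Their summed levels were 809.7 to 1231 TPM in Ctrl, 1183 to 1711 TPM in SHMO and 1608 to 1961 TPM in SBMO. Of 12 skeletal muscle genes, summing to 80210 to 109300 TPM, limma called 0 in any comparison, with 3, 2 and 0 at an unadjusted p under 0.05. Erythrocyte genes were lower for 2 of 7 in SHMO and 3 of 7 in SBMO, and skin genes for 4 of 9 and 2 of 9, beside 5.32% and 11.5% of all genes, so that 2 skin genes in SBMO are near the background. Every marker on these lists was above 0 in at least 1 library. Most exocrine pancreas markers were thus lower than in Ctrl in both injected groups, whereas the plasma protein genes were mostly called in SBMO.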

How the data were processed

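Poly(A) RNA of 9 pools of whole larvae was sequenced by the authors, who trimmed the reads and aligned them to GRCz11 with STAR; RSEM is named in the submitters' processing notes. The deposited values are TPM per Ensembl gene. TPM corrects for gene length and sums to a fixed total in each library, so no depth remains and its precision cannot be given; the annotation release is not given in the sources used here. As counts are not used here, the DESeq2 test named in the study's methods was replaced by limma.

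An Ensembl name table gave a symbol to 29201 of the 32520 genes, and symbols in capitals are those of the matching human gene. Libraries were scaled by their median ratio to the geometric mean of each gene (factors 0.9296 to 1.082), 0.1 was added and log2 taken. The 19051 genes that averaged 1 TPM or more (of 27442 above 0 in any library) entered a limma 3.58.1 model (R 4.3.3; lmFit, contrasts.fit, eBayes with a trend) with all 3 groups, and a call needed an adjusted p (Benjamini-Hochberg) of 0.05 or less and a change of 0.58 or more in log2(FC) either way. The fit was tested on simulated data with 200 changed genes. The simulated noise was independent between genes, so this test does not cover shifts that many genes of a library share. Figures were drawn with matplotlib 3.10.9.

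The labels call the libraries biological replicates; p-values measure the spread between these pools alone. The member genes, the other lists and the alternatives were chosen with earlier results of these data known. Values in every library were given for genes called in at least 1 comparison and for those with a mean of at least 100 TPM, and of other lists at most 3 genes per comparison with the smallest adjusted p were named. Alternatives were other pseudocounts, filters, scalings, variance priors and thresholds, only 2 groups in the model, a replicate block, and each library left out in turn. Neighbours were taken from RefSeq's GRCz12tu annotation, matching symbols, and none of its coordinates was used. Promoter and protein sequences were planned but not used here.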

Additional observations from a re-analysis of the deposited data

How the results depend on the processing

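Of the 40 calls on the plasma protein and coagulation genes over the 3 comparisons, 30 were lost under at least 1 of the 19 alternatives with a value per gene, 10 were not, and 0 changed sign. Of those 10, 3 were not tested with a mean of at least 5 TPM, both calls on PROC (ENSDARG00000093079) and that on F7 (ENSDARG00000100782) against Ctrl. Dropping the log2(FC) threshold, which can lose no call, was counted over lists alone. For these genes, SHMO against Ctrl gave 1 lower call, and 3 with a pseudocount of 1 or only the 2 groups compared, and 2 with a pseudocount of 0.5, no filter, quantile normalization, the robust prior or no trend. SBMO against SHMO gave 14 lower calls, 8 with no filter, 1 with only the 2 groups compared and 9 with the replicate block. Over all genes these were 522, 384, 50 and 374. The median log2(FC) in SHMO against Ctrl, -0.025, became 0.042 with no scaling and 0.037 with quantile normalization. With each library left out in turn, the genes called ranged from 0 to 1 higher and 0 to 4 lower in SHMO against Ctrl, 9 to 28 lower in SBMO against Ctrl and 2 to 21 lower in SBMO against SHMO, and the medians from -0.305 to 0.238, -1.557 to -0.999 and -1.628 to -0.967. No scaling moved the median log2(FC) of all genes from 0.041 to 0.107 in SHMO against Ctrl.

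Over all genes tested, SHMO against Ctrl gave 682 higher and 1013 lower calls, SBMO against Ctrl 1583 and 2189, and SBMO against SHMO 349 and 522. With a mean of at least 5 TPM, 11711 genes were tested instead of 19051. The higher and lower calls were then 450 and 582 in SHMO, 1200 and 1099 in SBMO, and 271 and 328 in SBMO against SHMO. With only the 2 groups compared, SBMO against SHMO gave 65 and 50. Leaving out each library gave 128 to 1028 higher and 270 to 1529 lower in SHMO, 238 to 1801 and 699 to 2434 in SBMO, and 78 to 520 and 73 to 739 in SBMO against SHMO. The labels number the libraries of each group 1 to 3 and do not say whether equal numbers pair them. Deviations from the group means correlated by -0.26 to 0.152 over 9 same-numbered pairs, with 3 above 0.1. Pairs with different numbers ran from -0.308 to 0.333. With 3 libraries per group these values cannot show whether same-numbered pools are paired. The replicate block gave 418 higher calls in SHMO against Ctrl and 227 higher in SBMO against SHMO. In SBMO against Ctrl it gave 19 lower calls among the plasma protein genes, beside 1790 lower over all genes. The causes of these shifts were not tested, beyond fewer genes or libraries in the model. Depth was not weighed, since TPM keeps none and the study's numbers of sequenced and trimmed fragments were not used here.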
